A study of Mus musculus with 22 samples.

Results

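The interferon-stimulated genes described here are a module of 40 genes that are induced by interferons in many cell types, measured on 22 mouse microarrays that followed primordial germ cells (PGCs) as they became embryonic germ cells (EGCs) in culture. Members were chosen by name: every non-control probe whose gene name, in its current or an older form, was one of the 40 was taken on all 22 arrays. A total of 39 of the 40 members, of 28103 genes named on the array, had such a probe; the level of Dtx3l was not analysed here. The list had been drawn up with the time course in view, as genes absent from uncultured PGCs, high from day 1 to day 6 and low at day 10, so the levels along that course chose the members, are given as a description and carry no test.

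Each group was 1 array, with no replicate. The time course held PGCs taken from mouse embryos at E11.5 and not cultured, PGCs after 1 day with basic fibroblast growth factor (bFGF), PGCs on days 2, 3 and 6 with bFGF, the MEK inhibitor PD325901 (1 µM), the GSK inhibitor CHIR99021 (3 µM) and A83-01 (250 nM), an inhibitor of activin and TGF-beta receptors, and cells on day 10, whose label names no agent. The MEK and GSK inhibitors together are called 2i. Also measured were an EGC line and a line of embryonic stem cells (ESCs) from a blastocyst. Further day 2 cultures had bFGF alone, bFGF with the MEK inhibitor, with the GSK inhibitor, with A83-01, with 4-hydroxytamoxifen (4OHT, 100 nM), or with 2i, A83-01 and 4OHT. Per the labels' protocols 4OHT served to activate AKT; the labels name no transgene. EBRTcH3, an ESC line, was measured as parental cells and with forced expression of Prdm14, Vasa, Nanos2, Nanos3, Dnd, GFP or Blimp-1, the GFP and Blimp-1 cells at day 2 of an EF1a construct. Media contained knockout serum replacement and LIF. Per the labels the cultures, uncultured PGCs, EGCs and ESCs were sorted as SSEA-1 positive and the construct cells as GFP positive. SSEA-1 marks PGCs and pluripotent cells, so the sorted population can change its make-up over the course, and in such bulk samples fewer cells of a type and less RNA per cell cannot be told apart. The arrays lay on 10 slides read on 8 scan days.

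Type I interferons bind the receptor made of Ifnar1 and Ifnar2, which activates the kinases Jak1 and Tyk2. These phosphorylate Stat2, which with Irf9 forms part of a complex that binds interferon-stimulated response elements in the promoters of target genes. The products detect viral nucleic acid, degrade or sequester viral RNA, cut and present antigen, attract leukocytes, or feed back on the signal. Pluripotent cells are known for a weak interferon response compared with differentiated cells. By role the 39 measured members fall into 5 signal regulators, 5 sensors of RNA and DNA, 14 antiviral effectors, 4 GTPases, 3 genes of ubiquitin and ADP-ribose transfer, 3 of antigen processing, 2 chemokines and 3 others.

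Promoters of part of the members show the element that the description of the pathway turns on. RefSeq promoter windows (GRCm38.p6, 250 bases before to 50 after the start of a gene) matched 30 of the 40 members in 33 windows. The core of the response element, read as GAAA, any 2 bases and GAAA again, was searched on both strands with overlapping matches counted. It stood in 16 of 33 member windows (48.5%) against 1131 of 32851 windows of all genes (3.44%). The members were listed as interferon-induced genes, so this share is a description. Of the 30 matched genes 16 had a match, and 13 had one before the start. Of 24 matches 21 lay before the start, 18 of them within 150 bases, and 7 genes had at least 2. All 4 GTPase genes, all 3 matched sensor genes and 6 of 10 matched effector genes had one, against 0 of 3 antigen processing genes and 0 of 2 of ubiquitin and ADP-ribose transfer. A match is a run of letters and not a measured binding site. The stretches below run 5′ to 3′ on the strand of the gene, 120 bases each, with the matches to the response element core in capitals (as TTTC, 2 bases, TTTC where the match is on the other strand). Isg15, Ifit3, Ifit1, Oas1a, Bst2, Gbp2 and Irgm1 are shown because their levels carry the comparisons that follow, and Psmb8 and Irf7 as members with no match in the window.
Isg15, chr4:156200819-156200938, minus strand: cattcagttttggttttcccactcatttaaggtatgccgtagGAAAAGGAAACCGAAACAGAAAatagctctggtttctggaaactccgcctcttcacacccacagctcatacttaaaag
Ifit3, chr19:34583333-34583452, plus strand: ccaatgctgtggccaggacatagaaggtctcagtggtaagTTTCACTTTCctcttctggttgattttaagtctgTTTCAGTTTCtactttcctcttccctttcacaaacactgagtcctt
Ifit1, chr19:34640745-34640864, plus strand: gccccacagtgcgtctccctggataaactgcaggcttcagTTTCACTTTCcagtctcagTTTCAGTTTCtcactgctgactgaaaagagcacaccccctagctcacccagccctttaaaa
Oas1a, chr5:120907526-120907645, minus strand: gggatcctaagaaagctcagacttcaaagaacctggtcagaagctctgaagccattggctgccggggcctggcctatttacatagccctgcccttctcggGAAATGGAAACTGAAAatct
Bst2, chr8:71537523-71537642, minus strand: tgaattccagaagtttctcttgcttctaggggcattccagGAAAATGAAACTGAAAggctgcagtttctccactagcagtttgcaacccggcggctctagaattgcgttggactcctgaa
Gbp2, chr3:142620543-142620662, plus strand: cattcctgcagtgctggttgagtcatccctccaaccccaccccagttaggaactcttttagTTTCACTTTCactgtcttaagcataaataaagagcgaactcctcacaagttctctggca
Irgm1, chr11:48871421-48871540, minus strand: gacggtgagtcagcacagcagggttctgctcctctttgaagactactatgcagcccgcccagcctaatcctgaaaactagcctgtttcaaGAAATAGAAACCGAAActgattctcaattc
Psmb8, chr17:34198075-34198194, plus strand: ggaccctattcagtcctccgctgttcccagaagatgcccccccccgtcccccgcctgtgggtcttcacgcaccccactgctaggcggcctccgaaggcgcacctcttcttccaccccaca
Irf7, chr7:141266425-141266544, minus strand: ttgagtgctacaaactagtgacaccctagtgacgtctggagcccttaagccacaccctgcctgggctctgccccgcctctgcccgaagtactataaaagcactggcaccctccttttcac
In Isg15 the 3 matches overlap in a single run, and in Oas1a, Bst2 and Irgm1 a pair overlaps. Oas1a carries its pair at the very end of the stretch, next to the start, while Ifit3 and Ifit1 carry 2 separate matches each on the other strand. The matches of the sensor genes Ddx58, Ifih1 and Eif2ak2 lie after the start and so outside a stretch of this kind.

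Values below are levels on a log2 scale on which 0 is the 75th percentile of intensity on the same array. Levels of a gene are compared between arrays only, never between genes. A probe that the scanner called not well above background has only an upper bound, and a fold against it is given as "at least". The share of probes well above background ran from 44.3% (2i, A83-01 and 4OHT) to 64.7% (EGC line), and the 75th percentile from an intensity of 121 on the former array to 750.3 on the ESC line; the uncultured PGC array stood at 203.8. No member was saturated. Of the 39 members, 36 were well above background on all 10 arrays of days 1 to 6, the exceptions being Eif2ak2, Ifit2 and Mx1, and 12 on all 22 arrays.

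**Figure D1:**
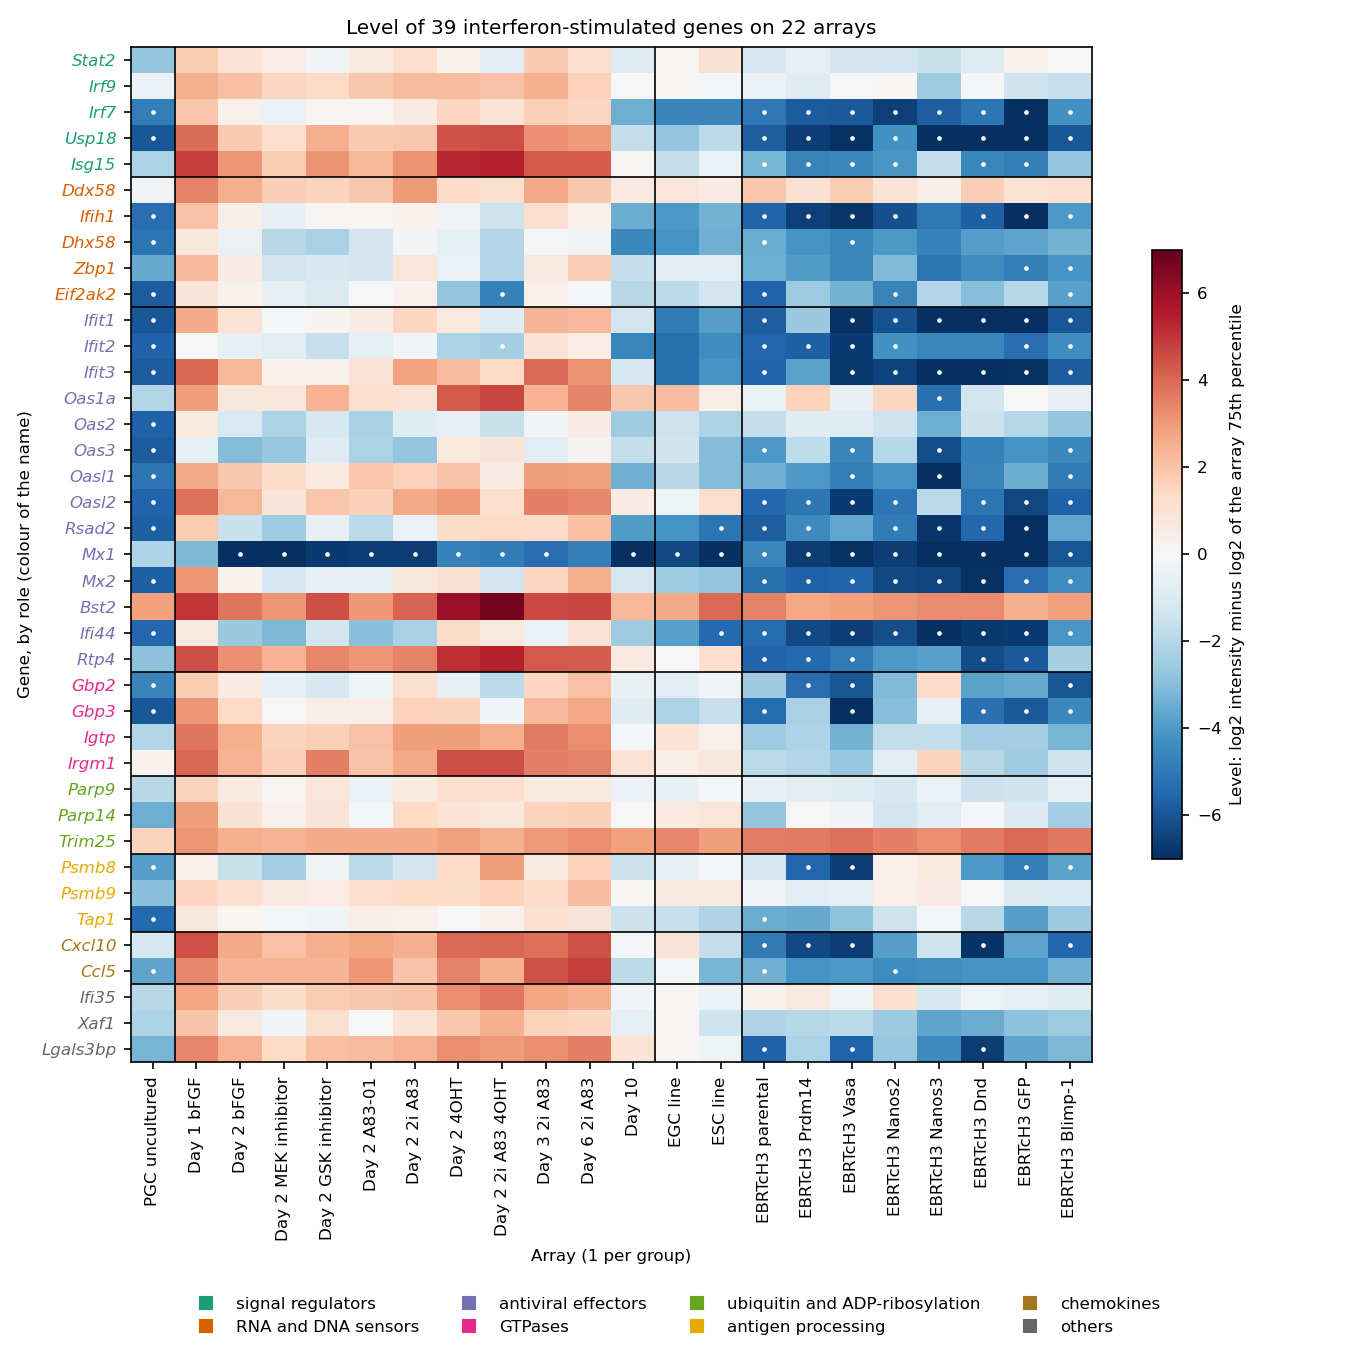
Level (colour, log2 scale, 0 at the 75th percentile of an array) of 39 members (rows, by role) on 22 arrays (columns, 1 per group); white dots mark probes not well above background. The median over members was -3.71 on uncultured PGCs, 2.62 on day 1 and -0.93 on day 10, and the EBRTcH3 columns are mostly dark blue.

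The label of the module held only in part for uncultured PGCs. There 19 of the 39 members were well above background and 20 were not, so nearly as many members had signal as had none. In 38 members, all but Mx1, that array was below each of the 10 arrays of days 1 to 6. On day 1 of culture all 39 were well above background and 38 were at least 2-fold higher than in uncultured PGCs, against 16.3% of all genes, while 1 (Mx1) was lower, against 31.2%; 20 of these differences are lower bounds. The median difference was 4.95 on the log2 scale against -0.48 over all genes. The PGC array lies on a slide of its own, and the difference has no replicate check. The largest bounds were Ifit3 at least 210-fold, Usp18 at least 194-fold and Oasl2 at least 188-fold, and the largest measured differences Rtp4 at 172-fold and Isg15 at 130-fold. The smallest differences upward were Trim25 at 2.86-fold and Bst2 at 4.34-fold, genes already well above background before culture.

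Among the signal regulators, Isg15, a ubiquitin-like modifier that is joined to proteins, was at -2.17 on uncultured PGCs, 4.85 on day 1, 3.15 on day 2 with 2i and A83-01, 4.31 on day 3, 4.25 on day 6, 0.10 on day 10, -1.69 in the EGC line and -0.43 in the ESC line. Its probe lies at chr4:155573922-155573981 (mm9, minus strand). Usp18, which removes Isg15 from proteins and damps the receptor, was not well above background in uncultured PGCs and stood at 3.91, 1.88, 3.22 and 2.99 on days 1, 2, 3 and 6. It was at -1.66 on day 10, -2.70 in EGCs and -1.82 in ESCs. Both genes were thus high on every culture array up to day 6 and low on the 3 later arrays, with no overlap. Irf9, the DNA-binding partner of Stat2, had a narrower range, from -0.43 in PGCs to 2.57 on day 1, 2.24 on day 2, 2.49 on day 3, 1.60 on day 6, 0.02 on day 10, 0.12 in EGCs and -0.10 in ESCs. Irf7, a factor that amplifies interferon production, was not well above background in PGCs and was at 1.94, 0.58, 1.68, 1.5 and -3.44 on days 1, 2, 3, 6 and 10, -4.63 in EGCs and -4.62 in ESCs. Its day 10 level was far below each earlier culture day and nearer to that of the lines. Stat2 was at -2.73 in PGCs, 1.79 on day 1, 1.84 on day 3 and -0.93 on day 10, and stood at 0.09 in EGCs and 1.08 in ESCs, so its ESC level lay among the culture levels.

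The sensors detect viral RNA or DNA. Ddx58, which encodes RIG-I, was well above background on all 22 arrays: -0.26 in PGCs, 3.50, 2.97, 2.73, 1.88 and 0.71 on days 1, 2, 3, 6 and 10, 0.85 in EGCs and 0.55 in ESCs. Ifih1, the related sensor of long viral RNA, had a wider range, with no signal above background in PGCs, 2.06 on day 1, 0.29 on day 2, 1.12 on day 3, 0.33 on day 6, -3.45 on day 10, -4.02 in EGCs and -3.31 in ESCs. Zbp1, a sensor of nucleic acid in the Z form, went from -3.51 in PGCs to 2.27, 0.85, 0.61 and 1.71 on days 1, 2, 3 and 6 and -1.65 on day 10. All 3 had their highest level of the 22 arrays on day 1. Eif2ak2, the kinase PKR that stops translation, was not well above background in PGCs, between -0.11 and 0.88 on days 1 to 6 of the time course and at -1.93 on day 10. Dhx58 followed the same order of arrays, at 0.79 on day 1 and -4.50 on day 10. As a group the 5 sensors had a median of 2.06 on day 1, 0.29 on day 2, 0.61 on day 3 and 0.33 on day 6, so after day 1 they stayed lower.

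The effectors block steps of viral replication. Ifit3, which binds viral RNA together with Ifit1, was not well above background in PGCs and was at 4.03, 2.84, 3.96, 3.14 and -1.19 on days 1, 2, 3, 6 and 10. It then stood at -5.27 in the EGC line and -4.16 in ESCs. Ifit1 went the same way, from no signal above background to 2.62 on day 1, 1.44, 2.39, 2.27 and -1.26, and to -4.87 in EGCs and -3.85 in ESCs. Both had an intermediate day 10 level, below days 1 to 6 and above the lines. Bst2, tetherin, which holds budding virus at the cell surface, was bright on all 22 arrays: 2.87 in PGCs, 4.98, 4.07, 4.6, 4.68 and 2.34 on days 1, 2, 3, 6 and 10, 2.67 in EGCs and 3.98 in ESCs. Its day 10 level was below that of uncultured PGCs. Rtp4 was at -2.89 in PGCs, 4.53, 3.47, 4.31, 4.24 and 0.70 on days 1, 2, 3, 6 and 10, -0.02 in EGCs and 1.19 in ESCs. Oas1a, an oligoadenylate synthetase that turns on RNA decay, ended high instead: -2.02 in PGCs, 2.93, 1.00, 2.45 and 3.48 on days 1, 2, 3 and 6, 1.86 on day 10, 2.15 in EGCs and 0.46 in ESCs. On day 10 it was above its own day 2 level. Oasl2, an oligoadenylate synthetase-like gene, was at 3.87, 2.64, 3.51, 3.35 and 0.55 on days 1, 2, 3, 6 and 10, -0.30 in EGCs and 1.23 in ESCs. The other effectors Ifit2, Oas2, Oas3, Oasl1, Rsad2, Mx2 and Ifi44 were not well above background in PGCs and were higher on day 1, from at least 7.98-fold for Oas3 to at least 105-fold for Mx2. Mx1, an antiviral GTPase, was the exception of the whole module by its brighter probe. That probe was well above background on 3 arrays only, at -2.14 in PGCs, -3.16 on day 1 and -4.79 on day 6. The second Mx1 probe was not well above background in PGCs and read -4.585 on day 1, so the direction was not shared.

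Among the GTPases, which act on the membranes around intracellular pathogens, Irgm1 was at 0.23 in PGCs, 4.03, 2.63, 3.54, 3.48 and 1.00 on days 1, 2, 3, 6 and 10, 0.45 in EGCs and 0.80 in ESCs. Igtp (Irgm3) was at -2.07 in PGCs, 3.73, 2.93, 3.65, 3.27 and -0.15 on the same days, 0.95 in EGCs and 0.35 in ESCs. Both separate the cultures of days 1 to 6 from all other arrays of this course. Gbp2, a guanylate-binding protein gene, was at 1.76, 1.14, 1.51, 2.03 and -0.55 on those days, and Gbp3 at 3.09, 1.61, 2.29, 2.72 and -0.85. Neither had signal above background in PGCs. Of the genes of ubiquitin and ADP-ribose transfer, Parp14 was at -3.44 in PGCs, 2.90 on day 1, 1.37 on day 2, 1.56 on day 3, 1.69 on day 6, -0.03 on day 10 and 0.68 in EGCs, and Parp9 went from -1.96 in PGCs to 1.56 on day 1 and -0.43 on day 10. Trim25, the ubiquitin ligase that activates RIG-I, hardly followed the module: 1.55 in PGCs, 3.07, 2.58, 2.97, 3.25 and 2.89 on days 1, 2, 3, 6 and 10, 3.37 in EGCs and 2.94 in ESCs. It was between 3.26 and 3.95 on the 8 EBRTcH3 arrays, at or above its day 6 level, and its second probe disagreed with the first (r = -0.13 over 22 arrays).

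Antigen processing genes encode immunoproteasome subunits and the peptide transporter. Psmb9 was at -2.91 in PGCs, 1.43, 1.39, 1.36, 2.17 and 0.06 on days 1, 2, 3, 6 and 10, 0.68 in EGCs and 0.66 in ESCs. Psmb8 and Tap1 had no signal above background in PGCs; Psmb8 was at 0.34, -1.27, 0.69, 1.60 and -1.48 on those days and Tap1 at 0.80, 0.38, 1.14, 0.89 and -1.50. These genes were highest on days 3 or 6 within the course rather than on day 1. The chemokines, which attract T cells and other leukocytes, also had late maxima in part: Ccl5 was at 3.38 on day 1, 2.01 on day 2, 4.46 on day 3, 4.83 on day 6, -1.82 on day 10, -0.15 in EGCs and -3.22 in ESCs. Cxcl10 was at -1.21 in PGCs, 4.48, 2.55, 3.86, 4.45 and -0.12 on days 1, 2, 3, 6 and 10, 0.89 in EGCs and -1.69 in ESCs. Ccl5 on day 10 was 101-fold below day 6, the largest step of any member there. Lgals3bp, a secreted glycoprotein gene, was at -3.23 in PGCs, 3.41 on day 1, 3.54 on day 6 and 0.98 on day 10. Ifi35 went from -1.95 to 2.74, 2.48 and -0.20, and Xaf1, a regulator of apoptosis inhibitors, from -2.17 to 1.99, 1.44 and -0.62 on the same arrays.

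The course between day 1 and day 10 was not level. On the same slide as day 1, all 39 members were lower on day 2, 27 of them at least 2-fold with bFGF alone (5.28% of all genes were lower and 3.86% higher) and 23 with 2i and A83-01 (5.1% and 3.76%), with medians of -1.54 and -1.18. The largest differences with bFGF alone were Rsad2 (-3.34), which encodes viperin, and Ifi44 (-3.26). From day 2 to day 3 with 2i and A83-01, 13 of 38 members were at least 2-fold higher (3.64% of all genes) and 0 lower (5.96%); Ccl5 (2.45), Psmb8 (1.96), Oas3 (1.93), Ifi44 (1.86) and Rsad2 (1.74) led, and no sensor or GTPase was among the 13. This step crosses slides, and in it markers of germ cells (6 of 8, median -2.25) and of fibroblasts (6 of 11) were lower by at least 2-fold. Between days 3 and 6, on a shared slide, 4 members (Ifi44, Zbp1, Mx2 and Oas1a) were at least 2-fold higher (12.1% of all genes) and 0 lower (7.66%). From day 6 to day 10, 37 of 39 members were at least 2-fold lower (9.54% of all genes) and 0 higher (7.59%), with a median of -3.07 against 0.19 over all genes. Within the slide that held days 1 and 10, 37 of 39 were at least 2-fold lower on day 10 (14.4% of all genes) and 0 higher (17.9%); the others were Oas3 (-0.99) and Trim25 (-0.17). Oasl1 was 64.6-fold, Rsad2 51.9-fold, Usp18 47.4-fold and Ifih1 45.5-fold lower. In 28 members the day 10 array lay below each of the 10 arrays of days 1 to 6.

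**Figure D2:**
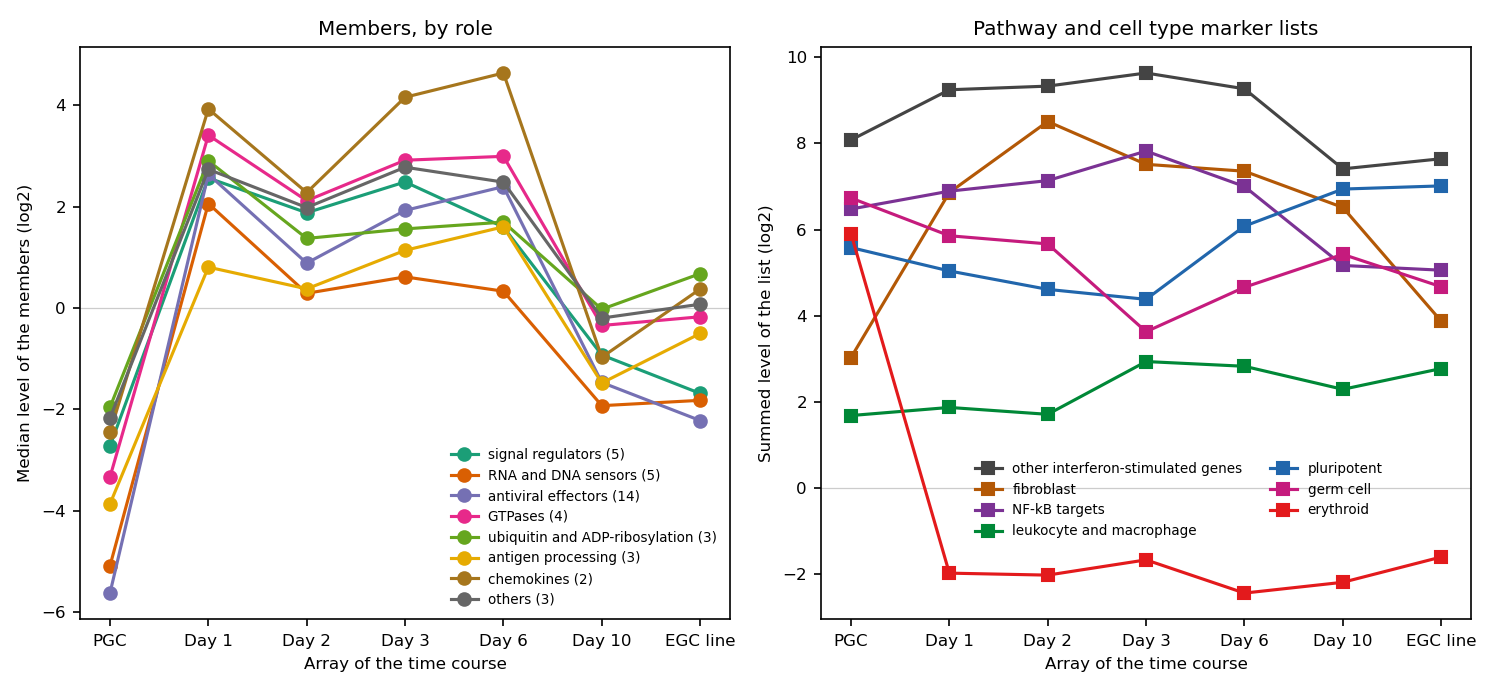
Left, median level (log2) of the members of each role on the 7 arrays of the course, with the number of genes in brackets; right, log2 of the summed level of pathway and cell type marker lists on the same arrays. The role medians run together from PGCs to day 1 (sensors from -5.09 to 2.06) and to day 10 (-1.93), fibroblast markers are higher on day 2 (8.51) than in PGCs, and erythroid markers are high on the PGC array only (5.91).

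Genes of the pathway outside the module were counted from lists. Of 49 other interferon-stimulated genes compared, 38 were at least 2-fold higher on day 1 than in PGCs and 2 lower (median 2.47), and 42 of 49 were lower on day 10 than on day 1 with none higher (median -2.32). Of 11 receptor and kinase genes, 5 were higher on day 1 and 6 lower on day 10: Jak1 went from 0.23 in PGCs to 3.24 on day 1 and 2.04 on day 10, and Ifnar2 from -1.12 to 1.10 and 0.57, while Ifnar1 was at -0.84, -1.10 and -1.10. Of 15 genes of the pathway that induces interferon, 7 were higher on day 1 and 10 lower on day 10; Sting1, the adaptor of cytosolic DNA sensing, was at -0.93, 2.47 and -0.19. Of 13 interferon genes on the array, 4 were well above background in PGCs and 6 on day 1, and among the 6 that could be compared 0 were at least 2-fold higher on day 1 and 1 lower. Ifnb1, interferon beta, was well above background on 3 of 22 arrays, at -3.64 on day 1, -4.47 on day 2 with 2i and A83-01 and -3.64 on day 3. Of 12 targets of NF-kB 11 were higher on day 1 and 11 lower on day 10 than on day 1.

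Markers of other cell types differed over the same arrays, and their part in these levels was not tested. Fibroblast markers were higher on day 1 (9 of 12 at least 2-fold), with a log2 summed level of 3.03 in PGCs, 6.86 on day 1, 8.51 on day 2 with 2i and A83-01, 7.51 on day 3, 7.36 on day 6, 6.51 on day 10 and 3.88 in EGCs. Col1a1 was at -2.48, 3.55, 2.41 and -0.32 in PGCs, on day 1, on day 10 and in EGCs. From day 6 to day 10 4 of 12 were at least 2-fold lower and 3 higher. Of 12 leukocyte and macrophage markers 8 were well above background in PGCs and 7 on each of days 1, 3 and 6. Between PGCs and day 1, 1 of 8 compared was at least 2-fold higher (Cd14, from -3.19 to 1.31) and 4 lower. The log2 summed level of the list was 1.68 in PGCs, 1.87 on day 1 and 1.71 on day 2 with 2i and A83-01. It was 2.94 on day 3, 2.83 on day 6, 2.29 on day 10 and 2.78 in EGCs. Days 3 and 6 were thus above the earlier arrays and day 10, and the EGC line was near day 6. The sum lay close to its highest gene, which was at 2.56 on day 3 and 2.44 in EGCs. Single markers of the list differed. Ptprc and Adgre1 were each well above background on 1 of 22 arrays and Cx3cr1 on 0, beside the 7 of 12 given above for days 1, 3 and 6. These genes were picked after their values were seen, and the presence of such cells was not tested. Erythroid markers were high in the uncultured PGCs (5.91) and between -3.62 and -0.59 on the other arrays. Germ cell markers were well above background in PGCs (8 of 8), with a summed level of 6.73 there, 5.86 on day 1, 3.63 on day 3 and 5.43 on day 10.

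The end of the course left the members unevenly placed. Between day 10 and the EGC line, which lie on different slides, 6 of 38 members were at least 2-fold higher in EGCs (5.51% of all genes) and 8 lower (6.49%). Ifit3 (-4.08), Ifit1 (-3.61) and Isg15 (-1.79) led those lower in EGCs, and Ccl5 (1.68), Oasl1 (1.42) and Igtp (1.10) those higher. Fibroblast markers were at least 2-fold lower for 9 of 12. With a normexp background correction 1 member was higher and 4 lower. Against uncultured PGCs the EGC line kept 25 of 39 members at least 2-fold higher (18.2% of all genes) and had 1, Mx1, lower (22.8%), 12 of these differences being bounds; Oas1a (4.18), Parp14 (4.12) and Psmb9 (3.59) led, and Irgm1 (0.23), Bst2 (-0.20) and Irf9 (0.56) were near their PGC levels. With normexp correction 15 were higher. Against the ESC line, 7 of 38 members were at least 2-fold higher in EGCs (11.8% of all genes) and 6 lower (7.1%). Quantile normalization gave 5 and 9. Ccl5 (3.08) and Cxcl10 (2.58) were above their ESC levels, and Oasl2 (-1.52), Bst2 (-1.31) and Isg15 (-1.26) below.

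The day 2 cultures asked what each inhibitor did to the module. The 5 additions are each set against the same bFGF array, so their differences share its error. With the MEK inhibitor 36 of 38 members were lower than with bFGF alone, 11 of them at least 2-fold (3.57% of all genes) and 0 higher by that much (6.2%). The median was -0.77 against 0.06 over all genes. Ifit3 was at 2.34 with bFGF and 0.28 with the MEK inhibitor, Zbp1 at 0.57 and -1.31, Oasl2 at 2.34 and 0.91, and Isg15 at 3.09 and 1.79. Those at least 2-fold lower were in sensors (2 of 5), effectors (5 of 13), GTPases (2 of 4), signal regulators (1 of 5) and others (1 of 3), with none among antigen processing genes or chemokines. Of 12 fibroblast markers 5 were at least 2-fold lower too. The arrays lie on different slides; against the A83-01 array of its own slide the MEK inhibitor array had 34 of 38 members lower with a median of -0.51, and 0 at least 2-fold in either direction (4.96% of all genes were higher and 4.41% lower).

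With the GSK inhibitor the members differed from bFGF in both directions. Of 38 compared, 14 were at least 2-fold apart from the bFGF array (18.4% of all genes), 6 of them higher (1996 of 17290 genes were) and 8 lower (6.9%). Oas3 was at -3.01 with bFGF and -0.88 with the GSK inhibitor, Oas1a at 0.79 and 2.45, Psmb8 at -1.56 and -0.26, and Irgm1 at 2.44 and 3.52. Lower were Ifit3, at 0.31, Dhx58 from -0.49 to -2.29, Gbp2 from 0.59 to -1.13 and Zbp1 from 0.57 to -1.14. Among the sensors 3 of 5 were at least 2-fold lower and none higher. Within its slide, against the A83-01 array, 10 members were at least 2-fold higher (9.25% of all genes), among them Oas1a, Oas3, Psmb8, Irgm1, Rsad2 and Ifi44, and 3 lower (6.03%: Stat2, Eif2ak2 and Oasl1). Fibroblast markers were at least 2-fold lower than with bFGF in 8 of 12.

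With A83-01 alone 0 of 38 members were at least 2-fold higher (6.99% of all genes) and 5 lower (6.0%): Zbp1 (-1.88), Ifit3 (-1.30), Oas2 (-1.19), Parp14 (-1.15) and Parp9 (-1.05). On that array 7 of 12 fibroblast markers (median -1.25) and 7 of 8 germ cell markers (median -1.83) were also at least 2-fold lower than with bFGF; their part was not tested. With 2i and A83-01 together, on the slide of the bFGF array, 33 of 38 members were slightly higher with a median of 0.26, and only Rsad2 (1.19) was at least 2-fold higher, against 2.05% of all genes, and 0 were lower (1.91%). The lower levels with the single inhibitors, on the other slide, were not seen in the combined culture; whether slide or combination goes with this cannot be told apart.

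**Figure D3:**
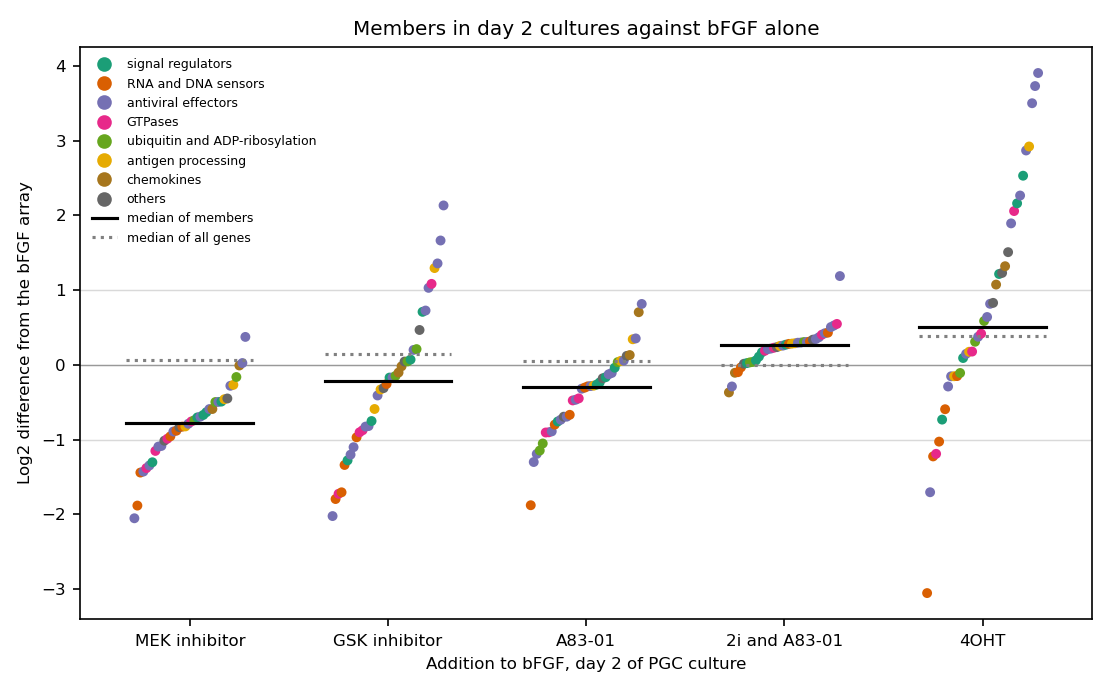
Log2 difference of each member (points, coloured by role, sorted within a column) from the bFGF array for 5 additions on day 2; the black line is the median of 38 members and the dotted line that of all genes. The MEK inhibitor column lies almost wholly below 0 (median -0.77), the column of 2i and A83-01 lies close to 0 (median 0.26) and the 4OHT column spreads from -3.06 to 3.91.

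A model of the 7 day 2 arrays with additive terms for the MEK inhibitor, the GSK inhibitor, A83-01 and 4OHT was fitted with limma across 19126 genes. Its p-values measure only the spread of these arrays around additivity, on 2 residual degrees of freedom. No member passed a Benjamini-Hochberg adjusted p of 0.05 in any term, and no gene of the whole table did. At an unadjusted p under 0.05 the MEK inhibitor term had 0 of 38 members (3.27% of all genes), the A83-01 term 0 (3.76%) and the combined term of 2i with A83-01 0 (2.5%). The GSK inhibitor term had 8 members, all higher (4.73% of all genes): Psmb8 (1.54 ± 0.37, estimate ± SE), Rsad2 (1.32 ± 0.42), Irgm1 (1.17 ± 0.27), Ifi44 (1.15 ± 0.32), Bst2 (1.14 ± 0.30), Oas1a (1.04 ± 0.38), Xaf1 (1.00 ± 0.33) and Usp18 (0.74 ± 0.26). Their limma adjusted p was 0.9008. At an adjusted p of 0.05, where 0 members passed with all 7 arrays, the counts turn on single arrays. Without the MEK inhibitor array 5 members passed in the GSK inhibitor term (4.84% of genes), 5 in the MEK inhibitor term (9.25%) and 1 in the A83-01 term (4.49%). Leaving out the GSK inhibitor array or the A83-01 array moved the counts in these terms as well. Each of these fits takes its error only from how well the pairs with and without 4OHT agree. The term of an inhibitor whose own array is left out rests on the arrays with 2i and A83-01 and on additivity across slides. Such a term does not measure that inhibitor alone.

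4OHT was measured on a pair of backgrounds, with bFGF alone and with 2i and A83-01, on arrays that the pairs do not share. Both 4OHT arrays are the only arrays of their slide and scan day, so 4OHT, slide and scan cannot be told apart. Their 75th percentiles were at intensities of 241.9 and 121, against 674.3 and 555.1 on their comparison arrays. On the scale used here all genes together were higher on them, by a median of 0.39 and 0.59. These medians depend on the scaling. With quantile normalization they were 0.14 and 0.14, and with normexp correction 0.42 and -0.25. The members lay on both sides of the medians of 0.39 and 0.59. With bFGF, 15 of 38 were at least 2-fold higher with 4OHT (26.1% of all genes) and 5 lower (11.3%), and with 2i and A83-01, 13 were higher (35.1%) and 13 lower (15.7%). On the second pair the share of members that were higher was near that of all genes, and the share that were lower was above it.

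At least 2-fold higher on both were 13: Usp18, Isg15, Oas1a, Oas3, Rsad2, Bst2, Ifi44, Rtp4, Irgm1, Psmb8, Cxcl10, Ifi35 and Xaf1. At least 2-fold lower on both were 5: Ddx58, Zbp1, Eif2ak2, Ifit2 and Gbp2. These are 34.2% and 13.2% of the 38 members, beside 24.8% and 10.4% of 14166 genes, so the share that was lower on both was near that of all genes. In the same direction on both pairs were 30 of 38 members (78.9%), and 91.1% of the 14166 genes. Ifi44 was at -2.62 with bFGF and 1.28 with 4OHT, and at -2.25 and 0.74 on the 2i and A83-01 background. Oas1a was at 0.79 and 4.29 on the first pair and 1.00 and 4.65 on the second. Psmb8 was at -1.56 and 1.36, and at -1.27 and 2.94. In each of these the 4OHT arrays lay above all 5 day 2 arrays without 4OHT. Isg15 was at 3.09 and 5.25, and at 3.15 and 5.44. Eif2ak2 went the other way, from 0.31 to -2.74 with bFGF, and from 0.28 to a level not well above background on the second pair. Ddx58 was at 2.54 and 1.32, and at 2.97 and 1.12. Of the 5 sensors none was higher on either pair, where 26.1% and 35.1% of all genes were at least 2-fold higher. At least 2-fold lower were 3 with bFGF (11.3% of all genes) and 5 with 2i and A83-01 (15.7%). With normexp correction Zbp1 was at -0.92 on the first pair and Eif2ak2 at -0.44 on the second, while Ddx58 stayed at least 2-fold lower on both by its brightest probe. Other Ddx58 probes, without that correction, differed by -0.82, -1.06 and -0.98 on the first pair, so not all reached 2-fold.

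The core of the response element stood in 7 of the 11 matched genes that were higher on both pairs (Isg15, Oas1a, Oas3, Rsad2, Bst2, Irgm1 and Cxcl10) and in 3 of the 4 matched genes that were lower (Ddx58, Eif2ak2 and Gbp2). In Ddx58 and Eif2ak2 the match lies after the start. Fibroblast markers were lower with 4OHT, 10 of 12 at least 2-fold with bFGF (median -2.88) and 8 of 11 with 2i and A83-01 (median -5.45). Leukocyte and macrophage markers were higher, 4 of 8 at least 2-fold with bFGF (2 lower, median 1.03) and 4 of 7 with 2i and A83-01 (median 1.81), where their summed level was 1.71 without and 3.74 with 4OHT. Of 6 interferon genes compared, 4 and 3 were at least 2-fold higher on the first and second pair, beside 26.1% and 35.1% of all genes. Of 13 on the array, 6 were well above background with 4OHT and 3 with 2i, A83-01 and 4OHT. The part of these lists in the differences was not tested. The scaling matters for the second pair. Quantile normalization kept 12 of the 13 at least 2-fold higher on both pairs and all 5 lower. After normexp background correction 8 of the 13 were still higher in sign on both pairs, but only 4 at least 2-fold (Ifi44, Oas1a, Oas3 and Psmb8). On the second pair the difference of Isg15 was then 0.01, of Bst2 0.26, of Usp18 0.41 and of Rsad2 0.48. Cxcl10, Ifi35, Irgm1, Rtp4 and Xaf1 changed sign and were lower on that pair, by 0.64 for Cxcl10 at most. That pair then had 4 members at least 2-fold higher and 16 lower. Of the 5 lower members, 4 were then still lower on both pairs and 2 (Ddx58 and Gbp2) at least 2-fold.

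In the limma model the 4OHT term gave the members' adjusted p-values no lower than 0.0532, so none passed 0.05, like all other genes. At an unadjusted p under 0.05 stood 17 of 38 members (44.7%), 15 higher and 2 lower. That share was near the 46.4% of all genes, so this count is not particular to the members. The estimates were 3.52 ± 0.36 (SE) for Psmb8, 3.46 ± 0.31 for Ifi44, 3.22 ± 0.36 for Oas1a, 2.63 ± 0.29 for Bst2, 2.62 ± 0.38 for Isg15 and 2.59 ± 0.25 for Usp18, beside a median of 0.56 over all genes. The count at an adjusted p of 0.05, 0 with all 7 arrays, turns on single arrays: without the MEK inhibitor, GSK inhibitor or A83-01 array 21 members passed (50.4%, 50.6% and 49.9% of genes), and without the bFGF array 13 (15.2%). Without a single-inhibitor array the fit takes its error only from how well both 4OHT pairs agree. At the same threshold 9 members passed with normexp correction and 16 with no filter on dim probes. These counts have no share of all genes beside them, so they are no result about the members.

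**Figure D4:**
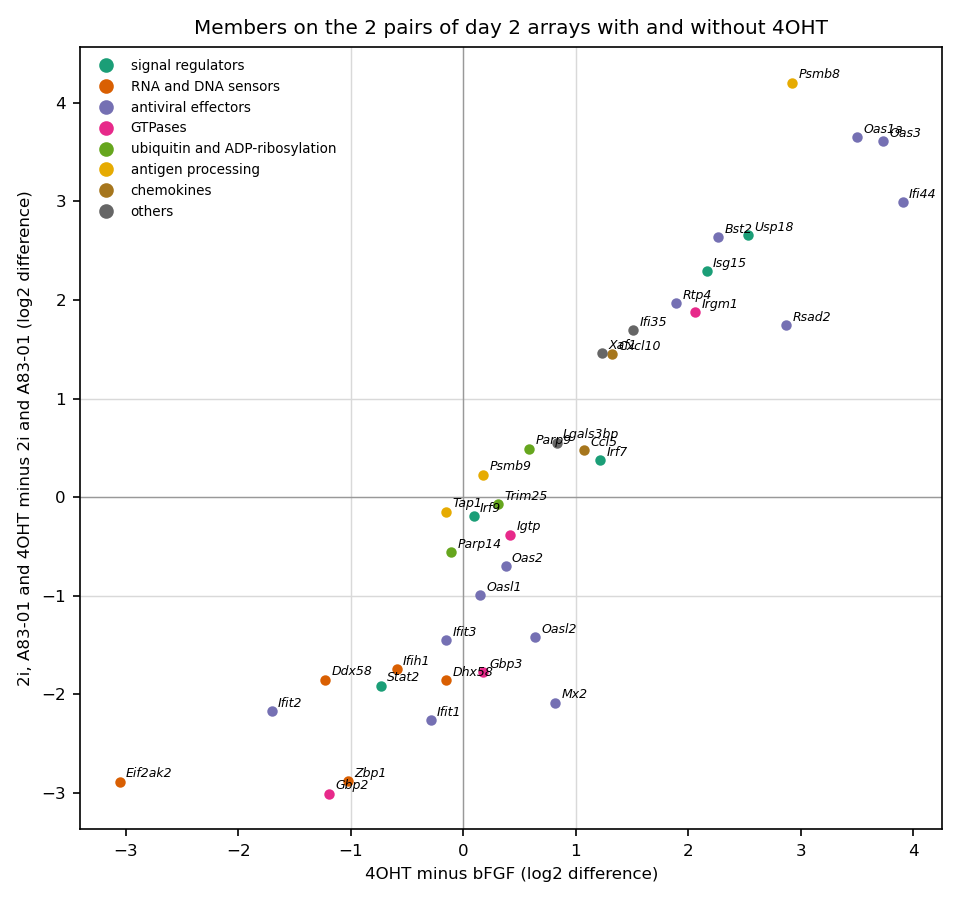
Log2 difference of 38 members with 4OHT against bFGF alone (x axis) and with 2i, A83-01 and 4OHT against 2i and A83-01 (y axis), coloured by role; 2 dim values on the y axis are bounds. Psmb8, Oas1a, Oas3 and Ifi44 lie at the upper right, and Eif2ak2, Gbp2 and Zbp1 at the lower left.

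The 4OHT arrays also allow a comparison within their slide. Adding 2i and A83-01 to 4OHT left 10 of 38 members at least 2-fold lower (4.97% of all genes) and 1, Psmb8, higher (8.32%). The 10 were Stat2, Ifih1, Dhx58, Zbp1, Ifit1, Oasl1, Oasl2, Mx2, Gbp2 and Gbp3. Gbp2 was at -0.60 with 4OHT and -1.87 with 2i and A83-01 added, and Mx2 at 1.06 and -1.32. Without 4OHT, within the slide of the bFGF array, the same addition left none at least 2-fold lower. That the addition differs with and without 4OHT was not tested.

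EBRTcH3 ESCs had low levels of most members. Parental cells had 18 of 39 members well above background, and the construct arrays between 19 and 28. Irf7, Usp18, Mx1, Mx2 and Ifi44 were not well above background on any of the 8 arrays. For Mx1 this holds for its brighter probe, and the second probe read -1.82 on the Nanos2 array. Against the ESC line of the time course, parental EBRTcH3 had 16 of 36 members at least 2-fold lower (15.5% of all genes) and 1 higher (30.6%), Ddx58 (1.39). Oasl2 was at least 26.1-fold and Rtp4 at least 25.5-fold lower, and Parp14 11.4-fold. The ESC line and EBRTcH3 lie on different slides, and only the former was sorted on SSEA-1.

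The arrays with forced genes differed from parental cells in different members. Prdm14 and Vasa share the slide of the parental cells; Nanos2, Nanos3 and Dnd lie on another slide and scan day, which cannot be told apart from the forced gene in these differences. With Nanos3, 10 of 30 members were at least 2-fold above parental cells (13.4% of all genes) and 8 below (23.4%). Gbp2 was at -2.54 on parental cells, not well above background on the Prdm14, Vasa and Blimp-1 arrays, at -3.07 with Nanos2, 1.35 with Nanos3, -3.73 with Dnd and -3.57 with GFP. Its Nanos3 level was the highest of the 8. Irgm1 was at -1.90, -2.05, -2.66, -0.73, 1.54, -1.93, -2.48 and -1.47 on the parental, Prdm14, Vasa, Nanos2, Nanos3, Dnd, GFP and Blimp-1 arrays. Here too Nanos3 was highest. Oas1a was lowest there: not well above background with Nanos3, and at -0.45, 1.60, -0.53, 1.47, -1.27, -0.04 and -0.57 on the other 7 in that order, at least 26.9-fold below parental cells. Irf9 with Nanos3 was at -2.50, below the other 7, which ran from -1.62 to 0.06.

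With Prdm14, 6 of 27 members were at least 2-fold higher than in parental cells (12.2% of all genes) and 2 lower (16.8%); Parp14 (2.68) and Oas1a (2.05) led. Ifit1, at -2.62, and Ifit3, at -3.73, were well above background on the Prdm14 array and on no other EBRTcH3 array. Nanos2 had 6 of 25 higher (8.85%) and 0 lower (12.8%), Vasa 1 of 22 higher (8.42%) and 4 lower (9.32%), and Dnd 2 of 24 higher (9.91%) and 4 lower (16.2%). Parp14 was at -2.69 in parental cells and higher with each of Prdm14, Vasa, Nanos2, Nanos3 and Dnd, between -1.34 and -0.01. The GFP array, at -1.01, lay within that range too, and the Blimp-1 array was at -2.36, so the parental array was the lowest of the 8. Blimp-1 against GFP, within a slide, had 5 of 26 higher (11.7%) and 2 lower (4.21%), with Rtp4 at least 5.55-fold and Isg15 at least 4.15-fold higher. Quantile normalization turned that split to 2 higher and 4 lower, and normexp correction gave 3 and 0. With normexp correction the splits were 5 and 8 for Nanos3, 2 and 2 for Prdm14, 1 and 2 for Vasa, and 1 and 1 for Dnd.

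A limma model of the 8 arrays, with slide as a block so that each construct is set against the other arrays of its slide, had 34 members among 19292 genes. No member passed an adjusted p of 0.05 for any construct; 2 genes of the table did for Dnd (0.0104%) and 0 for the others. At an unadjusted p under 0.05 were 10 members for Nanos3 (9.08% of all genes), 5 for Nanos2 (2.9%), 3 for Prdm14 (6.2%), 3 for Blimp-1 (4.94%), 2 for Dnd (2.24%) and 0 for Vasa (2.72%). With quantile normalization 2 members passed an adjusted p of 0.05 for Prdm14. For Nanos3 the estimates were 4.75 ± 1.52 (SE) for Gbp2, 2.87 ± 0.68 for Irgm1 and -2.45 ± 0.47 for Irf9, whose limma adjusted p of 0.1986 was the smallest of any member. The unadjusted counts include members not well above background on some arrays of a slide, such as Ifit1 and Ifit3 for Prdm14 and Oas1a for Nanos2 and Nanos3, for which no estimate is given.

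**Figure D5:**
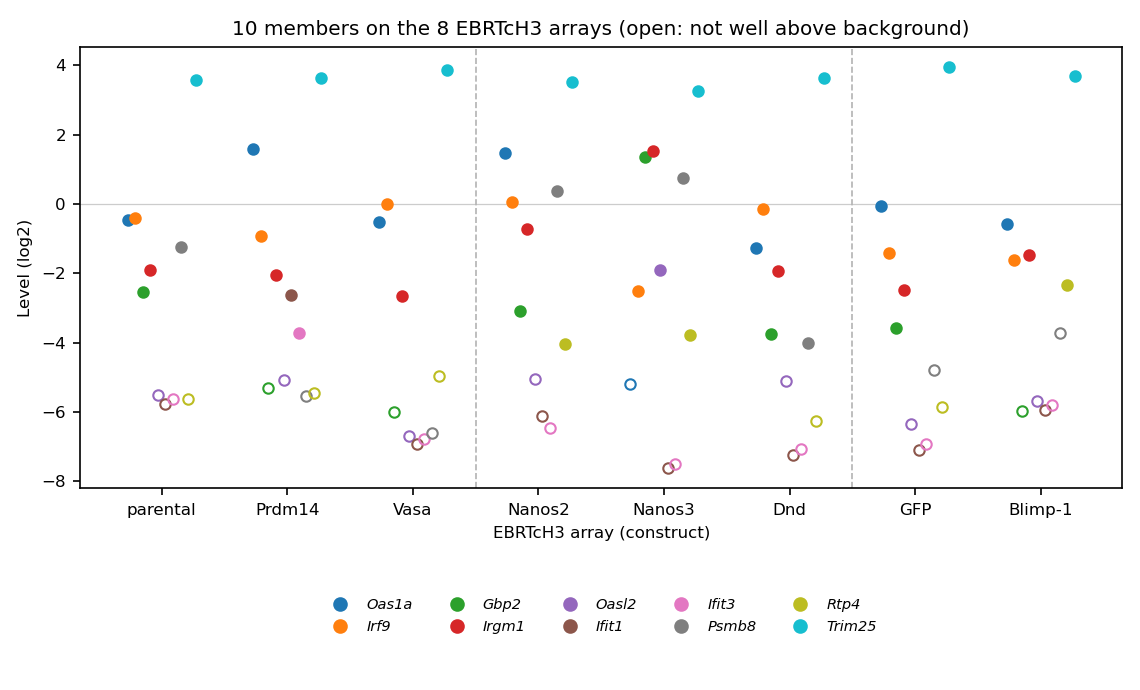
Level (log2) of 10 members on the 8 EBRTcH3 arrays; dashed lines part the 3 slides and open circles are probes not well above background. Gbp2 (1.35) and Irgm1 (1.54) are highest and Irf9 (-2.50) lowest on the Nanos3 array, Ifit1 and Ifit3 are filled on the Prdm14 array only, and Trim25 is bright on all 8.

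Members were also set against their own mean over the 22 arrays. The correlation of a member with the mean of the other 38 was 0.98 for Igtp and Usp18 and above 0.9 for most, but 0.58 for Oas2, 0.60 for Ddx58, 0.20 for Mx1 and -0.46 for Trim25. These values describe arrays that share the course that chose the members. Among 14979 other genes the 10 with the highest correlation to the members' mean were Irgm2 (0.97), Trim30a, Parp10 and Tgtp1 (0.96), and H2-K1, Ccl2, H2-Q7, Ifi27l2a, H2-T22 and H2-Q4 (0.95). H2-K1, a class I antigen-presenting molecule gene, was at 1.10 in PGCs, 5.97 on day 1, 6.57 on day 2 with 2i and A83-01, 6.93 on day 3, 6.51 on day 6, 2.91 on day 10 and 2.01 in EGCs. Unlike the members, it was not lower on day 2 than on day 1.

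For 15 members with several probes, the probe with the highest mean level stood for the gene. Other probes of Rsad2, Psmb8, Ccl5, Irf9, Ifih1, Ifit2 and Oas3 followed it with correlations from 0.85 (Oas3) to 0.997 (Ccl5) over 22 arrays, and 1 of the 2 others of Irgm1 with 0.99. Those of Ifi44 (0.39) and the remaining one of Irgm1 (-0.10) were not well above background on any array, and those of Mx1 (0.41) and Oas2 (0.49) on 2 and 3 arrays only. Other probes of Ddx58 had correlations of 0.87, 0.68 and 0.82, and those of Parp14 0.78 and 0.82. The other probe of Dhx58 (0.67) was well above background on 1 array. Both Trim25 probes were well above background on all 22 arrays and disagreed (-0.13).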

How the data were processed

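Microarray intensities were used as the authors deposited them: per the file headers, single-colour Agilent arrays were read with Feature Extraction 10.7.3.1, which subtracts background and detrends, with no normalization between arrays, and probe positions are on mm9. Levels were log2 of the processed intensity minus log2 of each array's 75th percentile, after dropping control and outlier spots and averaging repeat spots; the brightest probe by mean level stood for a gene. Genes were compared where at least 1 of both arrays was well above background. The members, gene lists, roles and tests were chosen with earlier results of these data known. Named genes are the members, and the 10 other genes most correlated with their mean; a few genes of the pathway and marker lists were picked after their values were seen. limma 3.58.1 (R 4.3.3) was fitted across all genes with Benjamini-Hochberg adjustment, to 7 day 2 arrays and 8 EBRTcH3 arrays, and tested on simulated data. The simulated noise was independent between arrays and held no slide effect, so slide and scan day were not part of that test. Labels do not say that arrays came from separate cultures or animals, so p-values measure only the spread between these arrays; each single array was taken to share the spread of its model. Tables used Python 3.11.15 and pandas 2.3.3. Alternatives were quantile normalization, normexp correction (offset 50), the authors' value table, other thresholds and probe rules, and leaving out arrays. The number of arrays limits the precision. Values of 1 gene of the pathway lists are not reported here.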

Additional observations from a re-analysis of the deposited data

How the results depend on the processing

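No paired analysis was possible because each group is 1 array and the labels give no shared replicate numbers beyond 1. The cause of each change below was not tested. The counts below are given without the share of all genes at the same setting. A change in the members therefore cannot be told apart here from a change in all genes. At an adjusted p of 0.05 in the day 2 limma model, 0 members passed in the 4OHT term, against 9 with normexp correction, 16 with no filter on dim probes, 14 with the mean of all probes and 0 to 21 on leaving out 1 array. The GSK inhibitor term had 0, against 1 with slide in place of 4OHT and 0 to 5 on leaving out 1 array, which gave 0 to 5 in the MEK inhibitor and 0 to 4 in the A83-01 term. A term whose own single-inhibitor array was left out rests on additivity across slides and does not measure that inhibitor alone. Quantile normalization gave 2 members for Prdm14, in place of 0. Counts of members at least 2-fold apart changed with the threshold. At 4-fold they were 7 and 5 for day 2 with bFGF and with 2i and A83-01 against day 1, 1 for day 3 against day 2, 0 for day 6 against day 3, 2 for EGCs against day 10, 1 for the MEK inhibitor, 2 for the GSK inhibitor, 0 for A83-01, 0 for 2i with A83-01, 10 and 13 for the 4OHT pairs, 2 for EGCs against ESCs and 11 for parental EBRTcH3 against ESCs. For Prdm14, Vasa, Nanos2, Nanos3, Dnd and Blimp-1 they were 3, 3, 1, 7, 2 and 2. At 1.5-fold they were 27 for day 3 against day 2, 15 for day 6 against day 3, 23 for EGCs against day 10, 27 for the MEK inhibitor, 23 for the GSK inhibitor, 16 for A83-01, 23 for EGCs against ESCs, and 13, 9, 11, 10 and 11 for Prdm14, Vasa, Nanos2, Dnd and Blimp-1. With normexp correction they were 5 for EGCs against day 10, 16 for EGCs against PGCs, 0 for 2i with A83-01, 8 for EGCs against ESCs, 11 for parental EBRTcH3 against ESCs, and 4, 3, 2, 2 and 3 for Prdm14, Vasa, Nanos2, Dnd and Blimp-1. With no filter on dim probes they were 2 for 2i with A83-01, and 14, 19, 16, 30, 16 and 19 for Prdm14, Vasa, Nanos2, Nanos3, Dnd and Blimp-1. The mean of all probes gave 2 for Nanos2 and 4 for Blimp-1. Against the A83-01 array of the same slide, a comparison chosen after seeing the data, the MEK inhibitor gave 0. The authors' value table left all 34 counts within 1.5 times. It holds nearly the same intensities (r of at least 0.9999 on each array) and was scaled in the same way, so it is no separate check. Dim probes limit the uncultured PGC and EBRTcH3 comparisons most.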
